A study of Mus musculus with 3 samples.

Results

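The enzymes that make phosphatidylcholine and phosphatidylethanolamine are described here across bulk liver RNA of 3 groups of male mice, with 1 library per group. The 10 genes, taken by symbol from 35275 in the table, are Pemt, Chka, Chpt1, Pcyt1a, Pcyt2, Pisd, Etnk2, Cept1, Ptdss1 and Ptdss2, and each symbol occurs there once. All mice were C57BL/6J (the strain label gives C57BL/6), male and 10 weeks old at the start, and the labels name no engineered allele. The control library comes from untreated mice fed normal chow (NCD). For the NASH library, named for nonalcoholic steatohepatitis, untreated mice ate a western diet and drank liquid fructose (WDF), and the label gives 24 weeks. The TH-treated NASH library is from mice that had the same diet for 16 weeks and then, for a further 8 weeks, T3 at 35 ng/g and T4 at 7 ng/g in drinking water with 15% fructose. The labels do not say how old the mice were at collection, nor whether a library pools animals. The libraries hold 54576236, 47009255 and 38303410 fragments in the order control, NASH, TH-treated NASH.

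Phosphatidylcholine and phosphatidylethanolamine are the main phospholipids of liver membranes and of the surface of lipoproteins and lipid droplets. Each is built on a CDP-activated head group. A kinase (Chka for choline, Etnk2 for ethanolamine) phosphorylates the base, and a cytidylyl transferase (Pcyt1a for choline, Pcyt2 for ethanolamine) activates it. A phosphotransferase (Chpt1 for choline, Cept1 for either) then joins the activated base to diacylglycerol. Liver also turns phosphatidylethanolamine into phosphatidylcholine by adding methyl groups through Pemt. A separate route exchanges the head group of these lipids for serine (Ptdss1, Ptdss2) and removes its carboxyl group in mitochondria (Pisd), which returns phosphatidylethanolamine.

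Levels are in FPKM, the fragments of a gene divided by its length in kilobases and by the size of the library. Levels of different genes can be set side by side only as far as those lengths, and the counting of sequence shared between genes, are right. A fold is a ratio of FPKM, and the range after it is its 95% counting interval (exact conditional binomial) from the fragments behind the values. A log2 ratio is taken on log2(FPKM + 1), a scale that understates differences of low genes. A gene is called higher or lower where its ratio on that scale reaches 1.5-fold. Each group is a single library, so there is no replicate check, no test between groups was made, and counts and intervals describe these libraries. The intervals cover counting error only. They treat each fragment as independent, which copies made by PCR are not. In bulk liver, fewer cells of a type and less RNA per cell cannot be told apart.

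Chpt1 was lower and Etnk2 higher in TH-treated NASH than in either other library, and no gene of the set was past 1.5-fold between NASH and control. In NASH against control none of the 10 genes was 1.5-fold higher, beside 10.5% of the 11499 genes compared, and none was 1.5-fold lower, beside 2.57%. In TH-treated NASH against NASH, 1 gene was higher, Etnk2, beside 8.49% of 11734 genes, and 1 was lower, Chpt1, beside 9.03%. TH-treated NASH against control shares its libraries with the other comparisons. There again 1 gene, Etnk2, was higher (15.8% of 11474 genes) and 1, Chpt1, lower (6.98%). All 10 genes lay above 1 FPKM in every library, so no filter removed any. As shares of 10 genes, the counts with the hormone are near those of all genes. The background depends on scaling: with TMM (trimmed mean) scaling 791 genes were higher and 535 lower in NASH against control, in place of 1208 and 296, and 1240 and 1299 in TH-treated NASH against control, in place of 1817 and 801. With equal FPKM totals 762 were higher and 1418 lower in TH-treated NASH against NASH, in place of 996 and 1060.

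**Figure D1:**
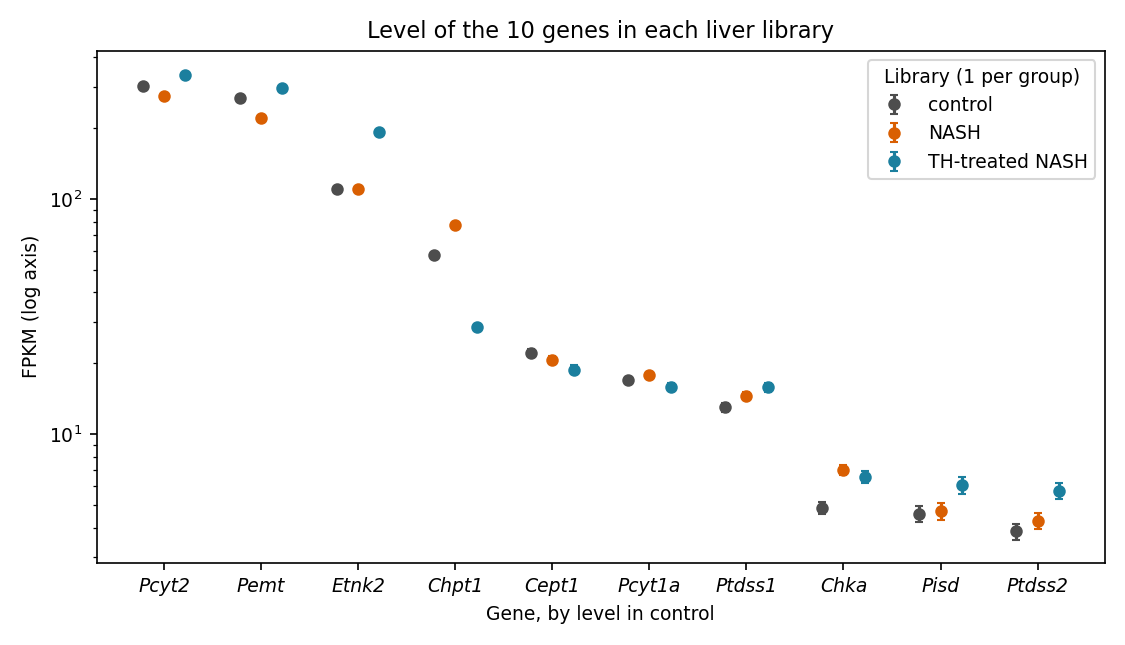
FPKM on a log axis of the 10 genes in the control, NASH and TH-treated NASH libraries (1 each), ordered by control level, with 95% counting intervals that are often smaller than the points. Pcyt2, Pemt and Etnk2 stand highest in all libraries, and Chpt1 is the gene with the widest gap between libraries, from 77.5 FPKM in NASH to 28.5 in TH-treated NASH.

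The levels spanned a wide range and kept the same order in all 3 libraries: Pcyt2, Pemt, Etnk2, Chpt1, Cept1, Pcyt1a, Ptdss1, Chka, Pisd and Ptdss2. The highest 5 ran from 300.9 FPKM for Pcyt2 to 22.2 for Cept1 in control. Pcyt2 ranked 221st and Pemt 263rd among all genes of the control library, while Chka ranked 6324th and Ptdss2 7057th. Neighbours in the order whose counting intervals overlapped were Chka and Pisd in control, Pisd and Ptdss2 in NASH, and, in TH-treated NASH, Pcyt1a with Ptdss1, Chka with Pisd and Pisd with Ptdss2. The 3 highest genes act on ethanolamine (Pcyt2, Etnk2) or use the product of that branch (Pemt).

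Chpt1, the cholinephosphotransferase that completes phosphatidylcholine from CDP-choline in the Golgi, differed most. It stood at 58.0 FPKM in the control library, 77.5 in the NASH library and 28.5 in TH-treated NASH, on 15397, 17721 and 5304 fragments. Among the libraries NASH was thus the highest and TH-treated NASH, also from mice on the diet, the lowest. NASH was 1.34-fold above control (1.31 to 1.37), and TH-treated NASH was 2.72-fold below NASH (2.64 to 2.81) and 2.04-fold below control (1.97 to 2.10). Only 145 of 11734 genes, Chpt1 included (1.24%), had a log2 ratio as low as its −1.41 between TH-treated NASH and NASH. Its position in the deposited table (ENSMUSG00000060002) is chromosome 10 from 88452745 to 88504073, minus strand, in a build the table does not name. Sycp3, a meiosis gene, overlaps it on the opposite strand over 13668 bases and stood at 0.423, 0.346 and 0.469 FPKM.

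Etnk2, the ethanolamine kinase found mainly in liver, stood at 110.3 FPKM in the control library, 110.3 in the NASH library and 192 in TH-treated NASH, on 16500, 14216 and 20166 fragments. Control and NASH could not be told apart by counting error, with a fold of 1.00026 (0.978 to 1.02). TH-treated NASH was 1.74-fold above NASH (1.70 to 1.78) and 1.74-fold above control (1.71 to 1.78). A log2 ratio as high as its 0.79 against NASH was found in 553 of 11734 genes (4.71%). Etnk2 (ENSMUSG00000070644) lies on chromosome 1 from 133363572 to 133380336, plus strand, in the same table. No gene of the table overlaps it.

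Since Chpt1 and Etnk2 are the genes past the threshold, and in opposite directions, the 250 bases before their RefSeq start sites are shown, from build GRCm38.p6. Chpt1 is read on the minus strand of chr10:88503971-88504220 and Etnk2 on the plus strand of chr1:133363322-133363571. Capitals mark GC boxes (GGGCGG on either strand, overlapping copies included) and CCAAT boxes (CCAAT on either strand).
Chpt1: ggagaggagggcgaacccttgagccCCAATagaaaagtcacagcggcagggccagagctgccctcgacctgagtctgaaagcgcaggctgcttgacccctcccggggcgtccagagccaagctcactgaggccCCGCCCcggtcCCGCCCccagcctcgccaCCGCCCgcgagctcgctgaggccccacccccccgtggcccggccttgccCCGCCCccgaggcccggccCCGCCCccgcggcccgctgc
Etnk2: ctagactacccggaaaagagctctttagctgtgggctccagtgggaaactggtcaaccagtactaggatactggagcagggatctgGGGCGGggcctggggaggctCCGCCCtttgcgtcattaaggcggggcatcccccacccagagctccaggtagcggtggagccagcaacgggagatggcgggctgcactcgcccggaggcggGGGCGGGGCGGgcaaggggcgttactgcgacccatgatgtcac
Chpt1 holds 5 GC boxes here and Etnk2 4. At least 1 GC box was found in 35.7% of the 32851 promoter windows of the RefSeq table, each of which reaches 50 bases past the start. A CCAAT box, marked here in Chpt1 and not in Etnk2, was found in 37.4% of them. The nuclear receptor core motif AGGTCA, searched on both strands, and found in thyroid hormone response elements, was in neither window and in 16.3% of all. Its direct repeat with 4 bases between, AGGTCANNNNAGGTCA on either strand, was in no window of the 8 genes that have one and in 5 of all. AGGTCA itself was found for 1 of these 8 genes, Pcyt1a, past the start site. A GC box was found for 7 of these 8, beside 38.2% of all genes with a window, and a CCAAT box for 5, beside 41.1%. A match, or its lack, describes these letters in this window only.

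The remaining steps of the choline branch lay closer together. Chka, choline kinase alpha, stood at 4.86 FPKM in the control library, 7.04 in the NASH library and 6.58 in TH-treated NASH. Both diet libraries were above control, NASH by 1.45-fold (1.34 to 1.56) and TH-treated NASH by 1.35-fold (1.25 to 1.47). The interval between the diet libraries includes no difference, with Chka 1.07-fold lower after hormone (0.991 to 1.16). Chka had the largest log2 ratio of the 10 genes in NASH against control, 0.46, and 1804 of 11499 genes (15.7%) were as high.

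Pcyt1a encodes the cytidylyl transferase alpha that is the usual rate-limiting step of phosphatidylcholine synthesis. It stood at 17.0, 17.8 and 15.9 FPKM in control, NASH and TH-treated NASH, the smallest spread of the choline branch. NASH was 1.05-fold above control (1.01 to 1.09) and TH-treated NASH 1.12-fold below NASH (1.07 to 1.18). Of the 8 genes with a promoter window, Pcyt1a was the one whose windows hold a sterol regulatory element, the site of the SREBP factors, searched as TCACNCCAC on either strand and found in 1.24% of all windows. The site is shown in capitals within 49 bases of GRCm38.p6, plus strand, chr16:32430785-32430833.
Pcyt1a: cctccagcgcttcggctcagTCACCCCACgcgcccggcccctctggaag

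Cept1, which joins either CDP-choline or CDP-ethanolamine to diacylglycerol in the endoplasmic reticulum, stood at 22.2, 20.6 and 18.8 FPKM in the same order. Both diet libraries were below control, NASH by 1.08-fold (1.02 to 1.13) and TH-treated NASH by 1.18-fold (1.12 to 1.25). Of the 50-base stretches of its transcripts in GENCODE M21, 21.9% also occur in transcripts of the overlapping gene Dennd2d, which stood at 2.54, 3.87 and 2.04 FPKM. The sources used here do not say how such fragments were counted.

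In the ethanolamine branch Pcyt2, the cytidylyl transferase for phosphoethanolamine, was the most abundant of the 10. Pcyt2 stood at 300.9 FPKM in the control library, 274.6 in the NASH library and 335 in TH-treated NASH. NASH was 1.10-fold below control (1.08 to 1.11) and TH-treated NASH 1.22-fold above NASH (1.20 to 1.24). Pemt, the methyltransferase that makes phosphatidylcholine from phosphatidylethanolamine and is largely confined to liver, showed the same order of libraries. It stood at 267, 221 and 295 FPKM. NASH was 1.21-fold below control (1.18 to 1.24), and TH-treated NASH was 1.34-fold above NASH (1.30 to 1.37) and 1.10-fold above control (1.08 to 1.13). Among the 10 genes Pemt had the lowest log2 ratio in NASH against control, −0.27, and 942 of 11499 genes (8.19%) were as low.

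All genes of the serine route stood highest in TH-treated NASH. Ptdss1, the synthase that uses phosphatidylcholine, stood at 13.0, 14.6 and 15.8 FPKM in control, NASH and TH-treated NASH. Ptdss2, which uses phosphatidylethanolamine, stood at 3.85, 4.28 and 5.74 FPKM on 639, 611 and 668 fragments. TH-treated NASH was 1.34-fold above NASH for Ptdss2 (1.20 to 1.4998) and 1.09-fold for Ptdss1 (1.02 to 1.15). Against control, Ptdss2 was 1.49-fold higher in TH-treated NASH (1.33 to 1.66), which is 0.47 on the log2(FPKM + 1) scale and below the threshold there. Pisd, the mitochondrial decarboxylase, stood at 4.56, 4.71 and 6.06 FPKM, and TH-treated NASH was 1.29-fold above NASH (1.14 to 1.45).

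The Pisd values are uncertain, because it shares sequence with other genes. Gm20671, a gene listed at 0 FPKM in all libraries, overlaps Pisd on the same strand over 48417 bases and holds 17.9% of the 50-base stretches of its transcripts. The copy Pisd-ps1 stood at 65.3, 74.6 and 100.004 FPKM, between 14.3 and 16.5 times Pisd, and shares 2.64% of the stretches. Pisd-ps2 shares 3.43% and stood at 8.34, 10.1 and 8.43 FPKM. Whether fragments were split between Pisd and its copies was not tested. Etnk2, Pcyt2 and Ptdss2 share no such stretch with another gene, and Chpt1 shares 9.48%, most of it with Sycp3.

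**Figure D2:**
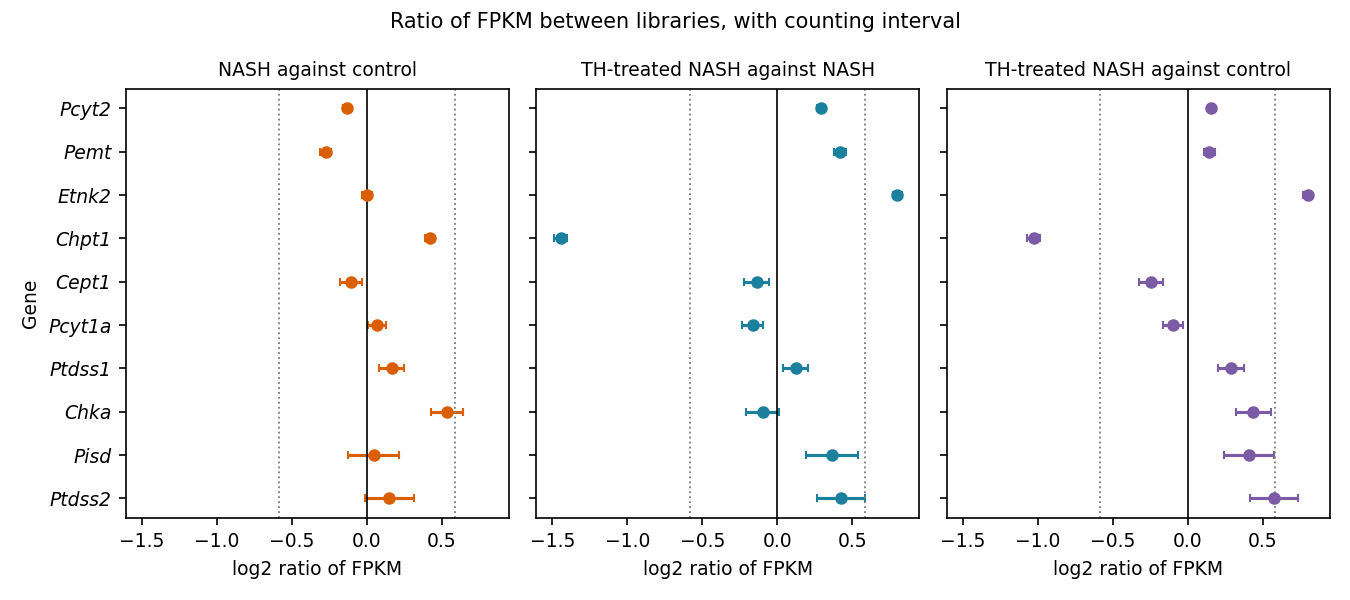
Log2 ratio of FPKM of each gene in the 3 comparisons, with 95% counting intervals; dotted lines mark 1.5-fold. In TH-treated NASH against NASH, Chpt1 lies left of the lower line at 2.72-fold lower and Etnk2 right of the upper line at 1.74-fold higher, while no gene lies beyond the lines in NASH against control.

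Across the 10 genes the medians were small. The median log2 ratio was 0.05 in NASH against control, beside 0.12 over all genes compared, and 0.20 in TH-treated NASH against NASH, beside −0.03. Against control, TH-treated NASH had a median of 0.21, beside 0.12. The counting interval excluded a fold of 1 for 7 of 10 genes in NASH against control, 4 above and 3 below, and for 9 of 10 in TH-treated NASH against NASH, 6 above and 3 below. The same share over all genes was not computed, so these counts do not set the 10 genes apart. At these depths counting error is small, and differences between animals, which it does not include, are unknown.

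The sign of small differences from control depended on scaling. TMM scaling moved the median of all genes in NASH against control from 0.12 to −0.06. Under TMM, and under median-of-ratios scaling, 2 of 10 genes lay above 0 and 8 below, against 7 and 3 as deposited. The genes that changed sign were Pcyt1a, Pisd, Etnk2, Ptdss1 and Ptdss2, whereas Chka and Chpt1 stayed above and Pemt, Pcyt2 and Cept1 below. Etnk2, at 0.00037 as deposited, was also −0.03 without the 50 most abundant genes. Between TH-treated NASH and NASH no gene of the 10 changed sign under any of the 4 other scalings, with 6 above and 4 below in each. Over all settings for pseudocount, filter and scaling the log2 ratio of Chpt1 there ran from −1.52 to −1.30 and that of Etnk2 from 0.69 to 0.83. In TH-treated NASH against control, that of Etnk2 ran from 0.61, with TMM scaling, to 0.80. The lower end is only just past 1.5-fold. Pemt and Pcyt2 in TH-treated NASH against control, 0.14 and 0.16 as deposited, turned to −0.05 and −0.03 with TMM scaling.

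**Figure D3:**
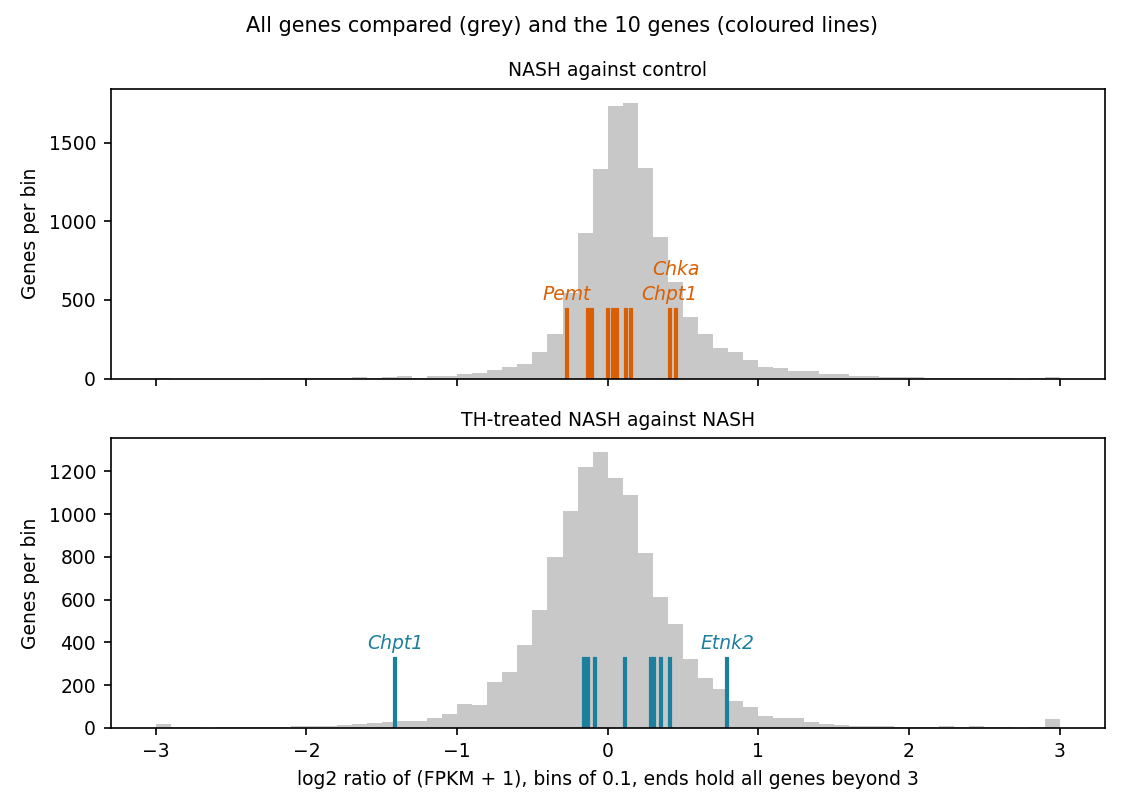
Histograms of log2(FPKM + 1) ratios of all genes compared (grey, 11499 above and 11734 below), with coloured lines at the 10 genes. In NASH against control the lines lie between −0.27 and 0.46 inside the bulk of all genes, and in TH-treated NASH against NASH Chpt1 at −1.41 and Etnk2 at 0.79 lie outside the other lines.

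Ratios between related enzymes within a library do not depend on how libraries are scaled. They do depend on the gene lengths used and on sequence shared with other genes, which the intervals do not cover. Chpt1 stood at 2.61 times Cept1 in control (2.52 to 2.71), 3.76 times in NASH (3.61 to 3.92) and 1.52 times in TH-treated NASH (1.44 to 1.60). The dedicated choline enzyme was thus above the dual one throughout, by least after hormone. Etnk2 stood at 6.69 times Etnk1, the other ethanolamine kinase, in control, 8.00 times in NASH (7.72 to 8.28) and 16.3 times in TH-treated NASH (15.7 to 17.0). Pemt was 4.61, 2.85 and 10.4 times Chpt1, lowest in NASH and highest in TH-treated NASH. Cept1, which also uses CDP-choline, is not part of that ratio. Pcyt2 was 17.7, 15.4 and 21.1 times Pcyt1a. Chkb, the second choline kinase, was 2.75, 2.12 and 2.76 times Chka, with control and TH-treated NASH inside each other's intervals. Ptdss1 was 3.37 and 3.40 times Ptdss2 in control and NASH, with overlapping intervals, and 2.76 times in TH-treated NASH (2.53 to 3.01).

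**Figure D4:**
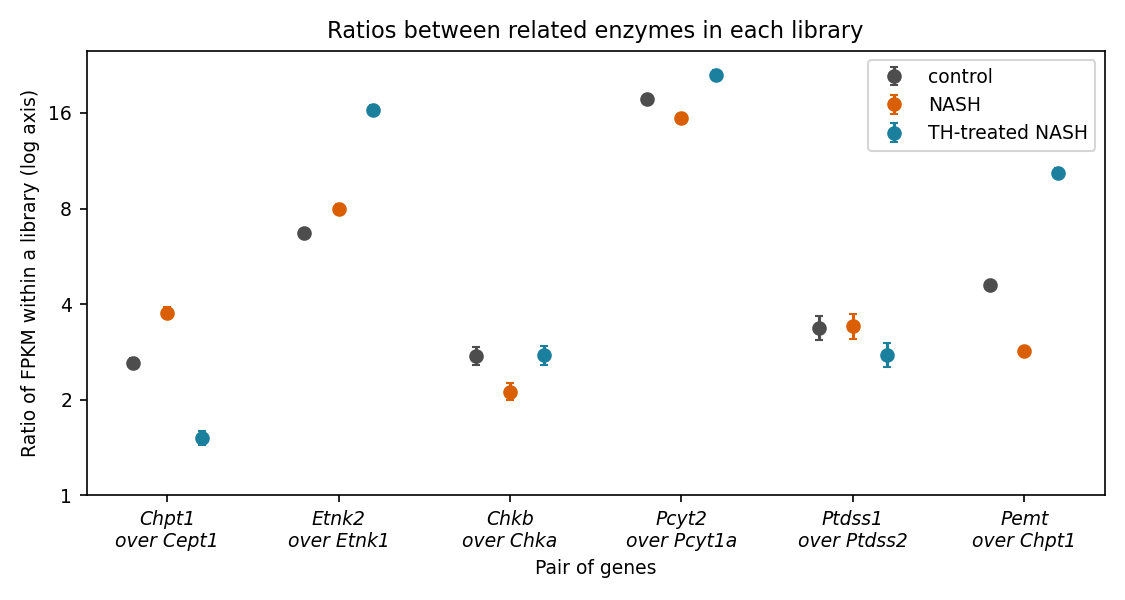
Ratio of FPKM between paired enzymes within each library (log axis), with 95% counting intervals. Chpt1 over Cept1 runs from 3.76 in NASH to 1.52 in TH-treated NASH, and Etnk2 over Etnk1 from 6.69 in control to 16.3 in TH-treated NASH.

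Genes around the pathway were taken from 8 lists, 60 genes in all, of which 50 reached 1 FPKM in any library. In NASH against control 6 of the 50 were higher and 3 lower, beside 10.5% and 2.57% of all genes. One of the 6, Gdpd1, was below 1 FPKM in both libraries of the pair. By the filter used for all genes, 1 FPKM within the pair, 5 of 49 were higher and 3 lower. The median log2 ratio of the 50 was 0.17, beside 0.12 over all genes. Between TH-treated NASH and NASH 4 were higher and 7 lower, beside 8.49% and 9.03% of all genes, and the median was −0.03, as over all genes. Between TH-treated NASH and control 9 were higher and 6 lower, beside 15.8% and 6.98%, and the median was 0.17, beside 0.12. No test of a list was made.

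Among these genes Etnppl, the lyase that degrades phosphoethanolamine, the product of Etnk2, stood at 31.2 FPKM in the control library, 9.01 in the NASH library and 1.08 in TH-treated NASH. It was 3.47-fold lower in NASH than in control (3.25 to 3.70), and in TH-treated NASH 8.31-fold lower than in NASH (6.84 to 10.2). Etnk2 was thereby 3.53 times Etnppl in control, 12.2 times in NASH and 177 times in TH-treated NASH (147 to 215). Gpcpd1, which releases choline from glycerophosphocholine, stood at 36.7, 33.9 and 113 FPKM and was 3.33-fold higher in TH-treated NASH than in NASH (3.24 to 3.42). Gde1, another glycerophosphodiesterase, was 1.88-fold higher (1.80 to 1.97). Against control, TH-treated NASH was 28.8-fold lower for Etnppl (23.9 to 35.1), and 3.08-fold and 1.61-fold higher for Gpcpd1 and Gde1.

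Phospholipases differed in both directions. Pla2g6, a calcium-independent phospholipase A2, was 1.62-fold higher in NASH than in control and 2.03-fold lower in TH-treated NASH than in NASH. Pla2g15, a lysosomal phospholipase A2, was 1.93-fold higher in NASH and stood at 12.3 FPKM there and 12.9 in TH-treated NASH. Gdpd1, a lysophospholipase D, was 3.59-fold higher in NASH (2.41 to 5.45) at 0.956 FPKM. Pla2g15 and Gdpd1 were also past the threshold in TH-treated NASH against control, 2.03-fold and 3.94-fold higher. Of the 13 breakdown genes at 1 FPKM in any library, 3 were higher and 1 lower in NASH against control, beside 10.5% and 2.57% of all genes. Without Gdpd1, which stood at 0.267 and 0.956 FPKM in that pair, 2 of 12 were higher. Between TH-treated NASH and NASH 2 of the 13 were higher and 2 lower, beside 8.49% and 9.03%.

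Methyl donor and choline oxidation genes, whose products feed or compete with Pemt, had 4 lower members and 1 higher of 11 in TH-treated NASH against NASH, beside 9.03% and 8.49% of all genes. Mat1a, which makes the methyl donor S-adenosylmethionine in liver, was the one that was higher, 1.79-fold (1.78 to 1.81), at 1281 against 714.5 FPKM. The 4 that were lower oxidise choline or use its methyl groups. Chdh, choline dehydrogenase, was 1.61-fold lower and Aldh7a1, which oxidises betaine aldehyde among other substrates, 2.54-fold lower. Bhmt, which transfers a methyl group from betaine, was 1.88-fold lower and Dmgdh, dimethylglycine dehydrogenase, 1.82-fold lower. In NASH against control the 1 gene past the threshold was Gnmt, which uses up S-adenosylmethionine, at 744.7 against 1407 FPKM, 1.89-fold lower (1.87 to 1.91). Relative to control, TH-treated NASH was 1.66-fold higher for Mat1a and lower for Chdh, Aldh7a1, Dmgdh (1.97-fold) and Sardh, the sarcosine dehydrogenase (1.60-fold).

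Supply of diacylglycerol, choline uptake, acyl exchange and export follow. Lpin1, a phosphatidate phosphatase that makes diacylglycerol, stood at 13.9 FPKM in the control library, 8.67 in the NASH library and 55.2 in TH-treated NASH, 6.37-fold above NASH (6.09 to 6.66) and 3.98-fold above control, with NASH below control by 1.60-fold. The choline transporter-like genes Slc44a2 and Slc44a3 were 1.77-fold and 1.79-fold higher in NASH than in control, each at 3.42 FPKM or less there, and Slc44a2 was 2.15-fold higher in TH-treated NASH than in control. Slc44a1, the most abundant of these transporters, stood at 9.74, 9.96 and 6.49 FPKM. In TH-treated NASH it was 1.53-fold below NASH (1.42 to 1.65), which is 0.55 on the log2(FPKM + 1) scale and within the threshold. Of the ethanolamine genes outside the 10, Ept1 (ethanolamine phosphotransferase, now Selenoi) stood at 7.91, 9.54 and 7.35 FPKM and Etnk1 at 16.5, 13.8 and 11.7, both within it. Lpcat2, a lysophosphatidylcholine acyltransferase of inflammatory cells, was 3.16-fold higher in NASH (2.52 to 3.98) at 2.21 FPKM. Lpcat3, the main acyltransferase of this kind in liver, stood at 47.5, 64.7 and 46.0 FPKM, within 1.5-fold in every comparison. Atp8b1, a flippase of the bile canaliculus, was 1.83-fold lower in TH-treated NASH than in NASH (1.69 to 1.99) and 1.85-fold lower than in control. Pctp, a phosphatidylcholine transfer protein, stood at 35.96, 50.1 and 60.4 FPKM and was 1.68-fold higher in TH-treated NASH than in control. Abcb4, which moves phosphatidylcholine into bile, stood at 72.8, 93.1 and 79.7 FPKM. Of the 6 genes of phosphatidylinositol and cardiolipin synthesis at 1 FPKM, none was past the threshold in NASH against control, where Cdipt was furthest off at 0.39, or between TH-treated NASH and NASH, where Cds2 was, at −0.43. Ptpmt1, the phosphatase of cardiolipin synthesis, was 1.54-fold higher in TH-treated NASH than in control.

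**Figure D5:**
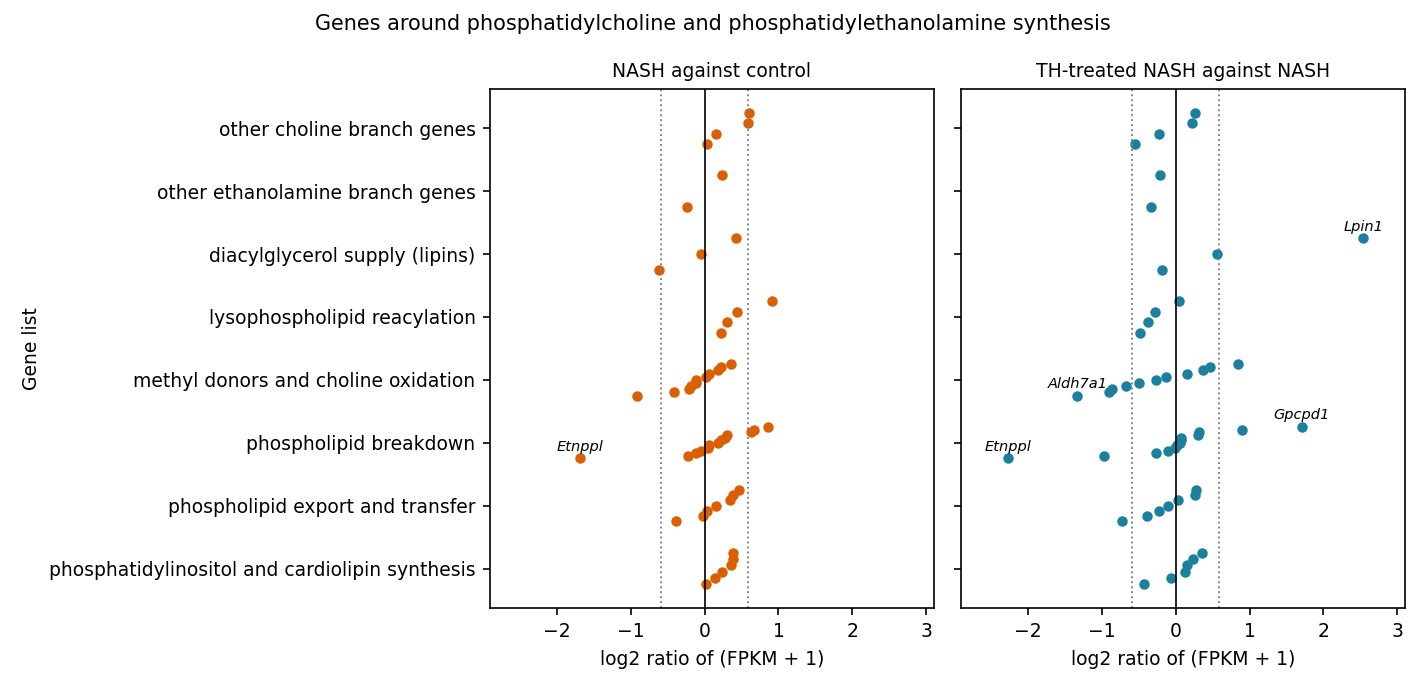
Log2(FPKM + 1) ratios of the 50 surrounding genes at 1 FPKM or more, 1 point per gene, by list, with 1.5-fold as dotted lines and names from a log2 ratio of 1. Etnppl is the lowest point in both comparisons, and Lpin1 and Gpcpd1 are the highest in TH-treated NASH against NASH.

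Markers of cell types moved between the libraries as well. All 8 hepatocyte markers, Alb and Hnf4a among them, were present in each library, and their summed level was 50571 FPKM in the control library, 33780 in the NASH library and 31729 in TH-treated NASH. Alb made up most of the control and NASH sums, and the other 7 summed to 17887, 13515 and 16823 FPKM. In NASH against control 4 of the 8 were lower and none higher, beside 2.57% and 10.5% of all genes. With the hormone, against NASH, 2 were higher and 2 lower, beside 8.49% and 9.03%. Macrophage and Kupffer cell markers summed to 129, 419 and 607 FPKM in the order of the libraries. All 9 were higher in NASH than in control, beside 10.5% of all genes. In control Gpnmb and Trem2 were below 1 FPKM. Between TH-treated NASH and NASH 3 of the 9 were higher (Clec4f, Cd5l and Marco), beside 8.49% of all genes. There 1 was lower, beside 9.03%, namely Gpnmb, at 0.124 against 5.19 FPKM. Cd68, Lyz2 and Trem2 stood below NASH within the threshold. Stellate cell and fibroblast markers summed to 72.3, 145.7 and 97.4 FPKM, of which Dcn made up 57.2, 101.0 and 79.3. Of these 7 markers, 6 were higher in NASH than in control, beside 10.5% of all genes. In TH-treated NASH against NASH 4 were lower, beside 9.03%. Endothelial markers summed to 54.2, 63.4 and 69.6 FPKM and lymphocyte markers to 2.15, 4.61 and 4.78. Without their leading genes, Clec4g and Nkg7, neither sum rose from NASH to TH-treated NASH. The other endothelial markers summed to 28.2 FPKM in NASH and 27.2 in TH-treated NASH, and the other lymphocyte markers to 2.72 and 2.37. Cholangiocyte markers summed to 30.3, 100.6 and 46.6 FPKM, but Spp1 alone made up 27.04, 95.8 and 44.3, and the other 4 summed to 3.30, 4.83 and 2.29, with Sox9 at 1.60, 1.35 and 0.492. Neutrophil markers summed to 4.64, 8.61 and 86.6 FPKM, with 1 of 4 at 0 in control. All 3 that reached 1 FPKM were higher in TH-treated NASH than in NASH, beside 8.49% of all genes. Of 6 markers of fat, pancreas, muscle and kidney, 6, 4 and 5 were at 0. The part of these shifts in the levels of Chpt1, Etnk2 and Pemt was not tested.

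For likeness of pattern, over the 3 libraries, the measure was the larger of the differences in the log2 ratios of NASH against control and of TH-treated NASH against NASH. Among 7148 other genes of at least 5 FPKM, 7 lay within 0.1 of Chpt1, led by Enpp2 (0.03 off), Rgn (0.06) and Wee1 (0.07). Enpp2, which makes lysophosphatidic acid, stood at 16.7, 22.1 and 7.82 FPKM. Chka had 138 such neighbours, led by Chn2, ENSMUSG00000079557 (its symbol stands as a date in the table) and Vps52. Etnk2, added to this search afterwards, had 61, led by Plcl2, Rps15 and Sra1. With 3 libraries such likeness is a description of a few values.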

How the data were processed

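Poly(A) RNA of mouse liver was sequenced, per the labels' protocols, after oligo(dT) enrichment, fragmentation and random priming. The submitters' processing notes name TopHat2 and HTSeq (versions, settings, strand mode and the build of the positions: not given in the sources used here). FPKM per gene, computed by the authors, were deposited as 1 column per library. The deposited values times gene length came in whole multiples of 1 step per library (100% of values within 0.01 fragment), which gave the fragments used for intervals. With 1 library per group no p-value was computed.

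Log2 ratios used a pseudocount of 1 FPKM. Counts over all genes took genes that reached 1 FPKM in one or both libraries of a pair, and lists those of at least 1 FPKM in any library. The 10 members and the lists were chosen with earlier results of these data known. Named were all members; per pathway list and comparison, the gene with the largest absolute log2 ratio and any other past 1.5-fold; and the 3 genes nearest in pattern to the member furthest off between NASH and control and between TH-treated NASH and NASH. Chkb, Abcb4, the Pisd copies, GC boxes, the neighbours of Etnk2, the list counts by the pair filter and the marker sums without the leading gene were added after values were seen. Older symbols were matched through the RefSeq table. Ept1 and Emr1 stand for Selenoi and Adgre1, and 1 list entry was not found beside its older name. RefSeq promoter windows (250 bases before and 50 after the start, GRCm38.p6) matched 8 of 10 members (not Pcyt2 or Ptdss1). A planned comparison of protein sequences was not analysed here. Alternatives were other pseudocounts, filters, scalings, a 2-fold threshold and protein-coding genes only. The step was tested on simulated data before use. Python 3.11.15, pandas 2.3.3 and SciPy 1.17.1 were used.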

Additional observations from a re-analysis of the deposited data

How the results depend on the processing

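With 1 library per group, no replicate was left out and no spread between animals is known. No paired analysis was possible because each group has 1 library. Counting error at these depths is small, so the limits are scaling and the unknown differences between animals.

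At 2-fold in place of 1.5-fold, 0 members were higher in TH-treated NASH against NASH or control, and Chpt1 was still the 1 lower in each. No other setting moved a count of members. The members' median in NASH against control, 0.05, was −0.14 with TMM and with median-of-ratios scaling. In TH-treated NASH against NASH it fell from 0.20 to 0.095 with equal FPKM totals. In TH-treated NASH against control, 0.21 became 0.028 with TMM, 0.042 with median-of-ratios, 0.13 with equal totals and 0.14 without the 50 most abundant genes. Of the members' log2 ratios recomputed under pseudocounts, filters and scalings, 170 moved by no more than their counting error and 70 by more. The filters cannot change a member's ratio, so their entries are among the 170 by construction and say nothing of robustness. Neither Chpt1 nor Etnk2 changed sign where it was past 1.5-fold.

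Over all genes, higher and lower in NASH against control (1208 and 296) became 791 and 535 with TMM, 791 and 533 with median-of-ratios, 367 and 159 with a pseudocount of 5 FPKM, 383 and 89 at 2-fold, and 551 higher at 5 FPKM or more. In TH-treated NASH against NASH (996 and 1060) they became 513 and 459 with a pseudocount of 5 FPKM, 320 and 325 at 2-fold, and 677 lower at 5 FPKM or more. In TH-treated NASH against control (1817 and 801) they became 789 and 380 with a pseudocount of 5 FPKM, 639 and 278 at 2-fold, 1093 higher at 5 FPKM or more, 1240 and 1299 with TMM, and 1276 and 1265 with median-of-ratios.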
